A study of Mus musculus with 2 samples.

Results

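B cells were identified among CD45-positive cells sorted from mouse retinas as cells with at least 3 UMIs (unique molecular identifiers, each counting 1 captured transcript) of Cd79a, Cd79b and Ms4a1 together. They also had fewer than 2 UMIs of the T cell receptor genes Cd3d, Cd3e and Cd3g, and fewer than 15 per 10000 UMIs of the microglial genes P2ry12, Tmem119, Gpr34, Olfml3, Sparc and Sall1. The members were thus chosen by their own UMI counts of these 12 genes. By this rule 141 of 4385 cells were B cells, 62 in the Igfbpl1 library and 79 in the PBS library. The Igfbpl1 group were B6 mice with microbead-induced glaucoma that had been given Igfbpl1, a secreted protein of the insulin-like growth factor binding protein family. The PBS group were B6 mice with the same microbead-induced glaucoma that had been given phosphate-buffered saline. Each group was 1 library pooled from 10 mice aged 8 to 10 months, perfused with saline before the retinas were dissociated with enzymes for 1 hour, and prepared with a 10x Chromium 3' kit. With 1 library per group and no replicate, every comparison below is between these 2 libraries and none has a test. Exact 95% intervals cover counting error only, not differences between mice, sorts or preparations.

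B cells carry a membrane-bound antibody whose signal is passed on by the Cd79a-Cd79b dimer. The lineage is set by transcription factors that include Ebf1 and Pax5, and mature cells present antigen on MHC class II. In the uninjured eye the retina lies behind the blood-retinal barrier and holds few lymphocytes, its resident immune cells being mainly microglia. There were 3330 cells with 9463631 UMIs in the Igfbpl1 library (median 2355.5 per cell) and 1055 cells with 3795008 UMIs in the PBS library (median 3433 per cell). The libraries shared 0 cell barcodes. For reference within each library, cells at or above the microglial limit were taken as microglial cells (1589 in Igfbpl1, 771 in PBS), and those below it with 2 or more Cd3 UMIs as T cells (305 in Igfbpl1, 29 in PBS). Cells of no other class with 20 or more UMIs of Cd74, H2-Aa, H2-Ab1 and H2-Eb1 were taken as other MHC class II cells (725 in Igfbpl1, 55 in PBS).

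Cd79a supplied the largest number of UMIs to the rule and Ebf1 was among the most frequent transcripts outside it, so the start of Cd79a is shown here, where EBF1 is known to bind. Cd79a lies at chr7:24897381-24902197 on the + strand of mm10 (GENCODE M21). The 134 bases before that start, chr7:24897247-24897380 on the + strand, were taken from the RefSeq promoter table (GRCm38.p6), with the only GGGAAT in capitals, 55 bases before the gene start.
Cd79a promoter: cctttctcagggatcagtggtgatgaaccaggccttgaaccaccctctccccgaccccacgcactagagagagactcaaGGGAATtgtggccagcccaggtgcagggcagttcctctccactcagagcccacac
GGGAAT, which overlaps the end of the full EBF motif, was found on either strand within 250 bases before the start in 11.4% of 32851 mouse promoters. The full palindrome, TCCC then any 2 bases then GGGA, was found in 0.779% of them and not in that of Cd79a. A match of letters is a description and not evidence of binding.

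B cells were a smaller share of the Igfbpl1 library than of the PBS library. They made up 62 of 3330 cells (1.86%, exact Clopper-Pearson interval 1.43% to 2.38%) in the Igfbpl1 library and 79 of 1055 cells (7.49%, 5.97% to 9.25%) in the PBS library. The difference, Igfbpl1 minus PBS, was -5.63 points, with an interval from -7.42 to -4.10 points. A share says nothing of the number of B cells per retina, since the other classes also set it. Among cells outside the microglial class, B cells were 3.56% in the Igfbpl1 library and 27.8% in the PBS library. The pools also differed in sex-linked transcripts, so the share was taken again among cells with a UMI of Ddx3y, Eif2s3y, Kdm5d or Uty and none of Xist, and among cells with Xist and none of those. It was 10 of 560 cells (1.79%, 0.860% to 3.26%) in the Igfbpl1 library and 39 of 490 (7.96%, 5.72% to 10.7%) in the PBS library among Y-only cells. Among Xist-only cells it was 21 of 1547 (1.36%, 0.842% to 2.07%) in the Igfbpl1 library and 11 of 250 (4.40%, 2.22% to 7.74%) in the PBS library. Of the 21 Igfbpl1 cells 15 held 3 or more Lyz2 UMIs (described below), and without them the Xist-only share in that library was 0.388%. The Y-only share in the Igfbpl1 library was 1.61% without the 1 such cell. The B cell share was lower in the Igfbpl1 library in both subsets, with and without these cells. Cells with neither kind of UMI fell in neither subset. They were 30 of 62 B cells and 1156 of 3268 other cells in the Igfbpl1 library, and 28 of 79 B cells and 279 of 976 other cells in the PBS library. Whether the sex of the pooled mice bears on the difference in share was not tested.

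Genes outside the rule matched the label. Each of the 62 Igfbpl1 and 79 PBS cells held a UMI of Ebf1, Bank1 or Igkc, which encode the lineage factor, a scaffold of receptor signalling and the kappa light chain constant region. Of 13 B cell markers not in the rule, every cell held at least 3 in the Igfbpl1 library (median 7) and at least 5 in the PBS library (median 9). At the edge of the rule, 9 Igfbpl1 and 4 PBS cells had exactly 3 UMIs of the rule genes, and all of these held Ebf1 and Igkc. Just outside it, 8 Igfbpl1 and 0 PBS cells had exactly 2 UMIs, and 4 of those 8 held Ebf1. The limits on other types removed 7 Igfbpl1 cells, 2 for Cd3 genes and 5 for microglial genes, and 3 PBS cells, all for microglial genes. The 8 T cell markers summed to 5 UMIs in the Igfbpl1 B cells and 0 in the PBS B cells. They include the 3 Cd3 genes that the rule itself holds low, a UMI of which was found in 3 Igfbpl1 B cells, so this sum is in part set by the choice of cells. Natural killer cell markers summed to 1 UMI in the Igfbpl1 B cells and 0 in the PBS B cells, and neutrophil and red cell markers to 0 in both. Of 7 plasma cell markers, Jchain had 0 UMIs in both libraries' B cells, but others of the list were found. The list summed to 43 UMIs in the Igfbpl1 B cells, from 6 genes, and to 79 UMIs in the PBS B cells, from 3 genes.

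The transcripts most confined to B cells were ranked by the fold of B cells over all other cells of the same library, taking the lower of the folds in both libraries. The rule chose on Cd79a and Ms4a1, so the ranking is a description. Among the leading 12 genes were, in this order, Iglc1, Vpreb3, Cd79a, Fcmr, Pax5, Ms4a1, Fcer2a, Ebf1, Iglc2, Igkc and Ighd, with lower folds between 86.7 for Ighd and 479 for Iglc1. The place of Iglc1 rested on 1 Igfbpl1 cell described below, without which its fold in the Igfbpl1 library was 68.2, under that of Ighd. Igkc, the most abundant of them, stood at 3676 CPM (the class's UMIs of a gene scaled to a total of 1000000) in Igfbpl1 B cells and 8764 CPM in PBS B cells. In all other cells it stood at 32.6 CPM in the Igfbpl1 library and 10.3 CPM in the PBS library. With every cell thinned to 1000 UMIs, Igkc was found in 88.7% of Igfbpl1 and 93.7% of PBS B cells, against 0.881% of Igfbpl1 and 0.389% of PBS microglial cells. Ighm, the mu heavy chain constant region, was less confined, being found after thinning in 61.3% of Igfbpl1 and 79.7% of PBS B cells and in 10.8% of Igfbpl1 and 16.6% of PBS microglial cells.

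A large part of the Igfbpl1 B cells also carried macrophage RNA. Lyz2, the lysozyme gene of monocytes, macrophages and neutrophils, had 3 or more UMIs in 22 of 62 Igfbpl1 B cells (35.5%, exact interval 23.7% to 48.7%) and in 0 of 79 PBS B cells, a count whose upper limit is a share of 3.80%. Lyz2 was not spread evenly over the Igfbpl1 B cells. It had 0 UMIs in 37 cells, 1 UMI in 3 cells and 3 to 93 UMIs in the other 22, with a median of 26.5 in the 22. The only Lyz2 UMI in PBS B cells was a single one. Lyz2 lies at chr10:117277331-117282321 on the - strand.

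**Figure D1:**
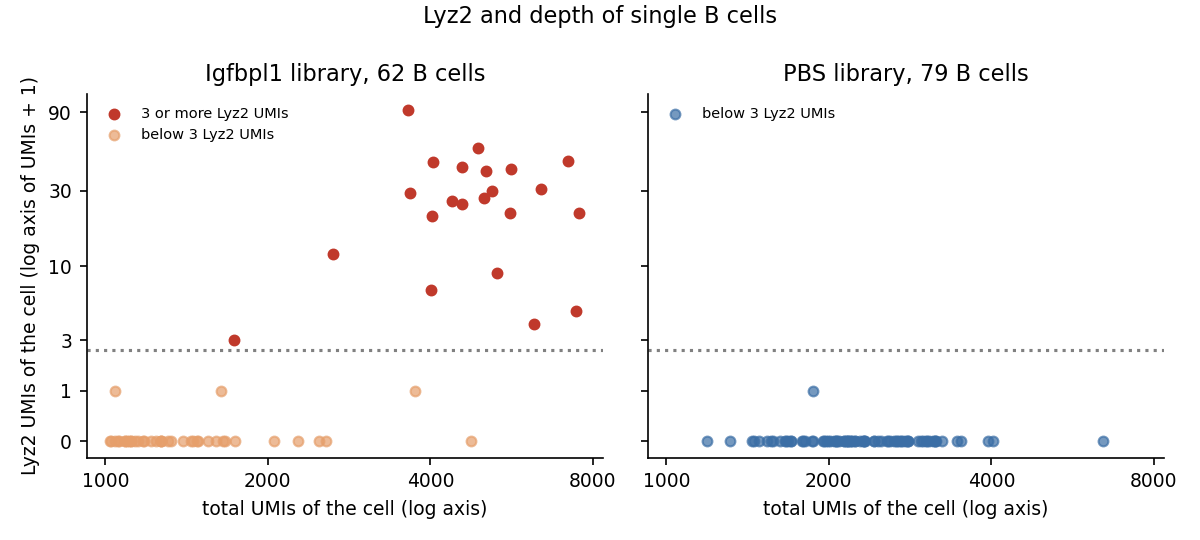
Lyz2 UMIs (vertical log axis of UMIs + 1) against total UMIs (horizontal log axis) of single B cells, with the Igfbpl1 library on the left and the PBS library on the right. The dotted line marks the limit of 3 Lyz2 UMIs, above which 22 Igfbpl1 cells and 0 PBS cells lie, most of them deeper than the other B cells.

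The 22 Lyz2 carriers were deeper cells. Their median was 4965.5 UMIs and 1744.5 genes, against 1269.5 UMIs and 698 genes in the 40 Igfbpl1 B cells with Lyz2 below 3, and 2235 UMIs and 1047 genes in the PBS B cells. Of the 22 carriers 18 had 4000 or more UMIs, as had 1 of the 40 other Igfbpl1 B cells and 2 of the 79 PBS B cells. In UMIs per cell their B cell markers were not reduced beside the other Igfbpl1 B cells, but as a share of all UMIs they were. The 13 markers outside the rule summed to a median of 28 UMIs per carrier, 24 per other Igfbpl1 B cell and 47 per PBS B cell. A set of 12 macrophage genes summed to a median of 185.5 UMIs per carrier, 2 per other Igfbpl1 B cell and 1 per PBS B cell, and to 34 per other MHC class II cell of the Igfbpl1 library. The set includes Lyz2, which chose the carriers, so their sum is in part set by the choice of cells. As a share of all UMIs, the 13 markers stood at 6436 CPM in carriers, 15953 CPM in the other Igfbpl1 B cells and 21227 CPM in PBS B cells. All sets had passed the same minimum of 3 rule UMIs per cell, which does not scale with depth, so the likeness in UMIs per cell is given with no reading.

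Several macrophage genes were detected in nearly every carrier. Apoe, a lipid carrier of macrophages and microglia, had a UMI in 21 of 22 carriers, as did Fcer1g and Tyrobp, adaptors of myeloid Fc and activating receptors. The complement gene C1qa was found in 19, the macrophage growth factor receptor gene Csf1r in 17 and the monocyte chemokine receptor gene Ccr2 in 15. Microglial P2ry12 was found in 2 carriers, the dendritic cell gene Cd209a in 1 and the T cell receptor gene Trbc2 in 0. Ccr2 had 0 UMIs in the 40 other Igfbpl1 B cells and 0 in the PBS B cells. The 8 monocyte and macrophage markers summed to 8447 CPM in carriers, 766 CPM in the other Igfbpl1 B cells and 403 CPM in PBS B cells, the last without a UMI of Ccr2, Ly6c2, Fcgr1 or Ms4a7. Lyz2, which chose the carriers, is among the 8 and supplied 638 of their 967 UMIs in all Igfbpl1 B cells. The sum in carriers is thus in large part set by the choice of cells. Scrublet, which scores barcodes for the likeness to 2 cells in 1 droplet, called 0 B cells in either library, against 62 of all 3330 Igfbpl1 cells (1.86%) and 6 of all 1055 PBS cells (0.569%). Its median score was 0.0764 in carriers, 0.0220 in the other Igfbpl1 B cells and 0.0146 in PBS B cells.

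The Y-only share was lower in the carriers than in the library's other B cells. Among cells with Xist or a Y-linked UMI but not both, 1 of 16 carriers was Y-only (6.25%, exact interval 0.158% to 30.2%). So were 9 of 15 other Igfbpl1 B cells (60%, 32.3% to 83.7%) and 39 of 50 PBS B cells (78.0%, 64.0% to 88.5%). The Y-only share was 3.20% in the other MHC class II cells and 3.35% in the T cells of the Igfbpl1 library, and 43.7% in its microglial cells. One carrier held both kinds of UMI. Lyz2 at 3 or more UMIs was found in 25 of 305 Igfbpl1 T cells (8.20%) and in 0 of 29 PBS T cells, and here too the carriers were deeper, with a median of 8108 UMIs against 2301 in the other Igfbpl1 T cells. Whether the carriers were single cells, pairs of cells in 1 droplet or B cells with attached RNA was not tested. Values are given below for all 62 Igfbpl1 B cells and for the 40 with Lyz2 below 3.

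Ebf1, Igkc, Bank1 and Ly6d, B cell transcripts outside the rule, were lower in CPM in the Igfbpl1 library, and each ratio was nearer to 1 once the carriers were left out. Cd79a stood at 1001 CPM in carriers, 2346 CPM in the other Igfbpl1 B cells and 3020 CPM in PBS B cells. Cd79b, at chr11:106311341-106314762 on the - strand, stood at 340 CPM in carriers, 1027 CPM in the other Igfbpl1 B cells and 1423 CPM in PBS B cells. Ms4a1, the CD20 gene at chr19:11249675-11266241 on the - strand, stood at 211 CPM in carriers, 668 CPM in the other Igfbpl1 B cells and 1014 CPM in PBS B cells. These 3 genes chose the cells, and their levels are given with no reading. With all B cells the ratio of Igfbpl1 to PBS was 0.461 (0.398 to 0.533) for Ebf1 and 0.419 (0.382 to 0.460) for Igkc. It was 0.546 (0.448 to 0.664) for Bank1 and 0.553 (0.462 to 0.660) for Ly6d. Without carriers, Ebf1 (chr11:44617317-45008091, + strand) stood at 2330 CPM in the Igfbpl1 B cells with Lyz2 below 3 and 3387 CPM in PBS B cells, a ratio of 0.688 (0.570 to 0.826). Igkc (chr6:70726435-70726966, + strand) stood at 6078 CPM in those Igfbpl1 cells and 8764 CPM in PBS B cells, a ratio of 0.694 (0.618 to 0.776). Bank1 stood at 1515 CPM in those Igfbpl1 cells and 1667 CPM in PBS B cells, a ratio of 0.909 (0.713 to 1.15). Ly6d, a surface protein of the early B lineage, stood at 1874 CPM in those Igfbpl1 cells and 2017 CPM in PBS B cells, a ratio of 0.929 (0.747 to 1.15). The intervals of Bank1 and Ly6d spanned 1, and those of Ebf1 and Igkc did not. All 4 ratios still include the 6 cells with most macrophage RNA (described below). Whether the Ebf1 interval stays clear of 1 without those cells is not given. The median log2 ratio of 18 B lineage transcription factors, Ebf1 among them, was -0.11 with those cells and 0.00041 without them.

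**Figure D2:**
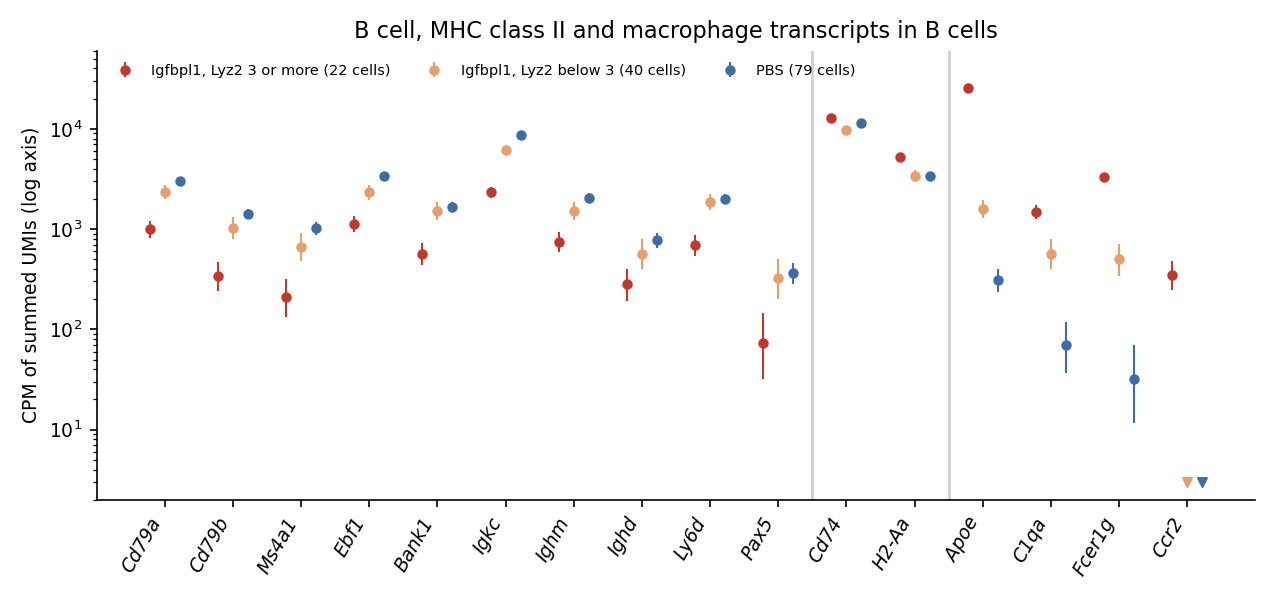
Summed expression (CPM, log axis) of B cell genes, MHC class II genes and macrophage genes in Igfbpl1 B cells with 3 or more Lyz2 UMIs, Igfbpl1 B cells with Lyz2 below 3 and PBS B cells, 1 library per treatment. Bars are exact 95% Poisson intervals and downward triangles mark 0 UMIs; Apoe stands at 25764 CPM in the carriers, 1581 CPM in the other Igfbpl1 B cells and 313 CPM in PBS B cells.

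Genes were compared on UMIs summed over the B cells of a library, and a gene is called higher or lower where it differed at least 2-fold with 10 CPM added to both libraries. With all B cells, 2601 genes were measured, of which 232 (8.92%) were higher and 254 (9.77%) lower in the Igfbpl1 library. The median log2 ratio was -0.16, and ratios centred on it gave 279 higher and 169 lower. The 12 genes of largest ratio were Lyz2, Il1b, Cxcl2, Fcer1g, Apoe, Ifitm2, Ifitm3, Mt1, Cd300c2, Ccl5, Aif1 and Ms4a6c, which include the cytokine interleukin 1 beta, the neutrophil chemoattractant Cxcl2 and the myeloid marker Aif1. Il1b had 216 UMIs in Igfbpl1 B cells and 0 in PBS B cells, and Cxcl2 had 141 UMIs in Igfbpl1 B cells and 0 in PBS B cells. Apoe stood at 17048 CPM in Igfbpl1 B cells and 313 CPM in PBS B cells, a ratio of 54.4 (42.1 to 71.7).

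Without the carriers 1857 genes were measured, of which 68 (3.66%) were higher and 164 (8.83%) lower in the Igfbpl1 library, with a median log2 ratio of -0.09. The 40 Igfbpl1 cells held 61369 UMIs and the PBS B cells 188392. A gene high in PBS thus reached the minimum of 20 UMIs at a lower CPM than a gene high in Igfbpl1. Aif1, with 15 UMIs in the Igfbpl1 cells and 1 in PBS B cells, was not measured. That fewer genes were higher than lower is therefore given with no reading. Of the 232 higher genes 148 no longer had enough UMIs to be measured, and 36 were higher in both comparisons, which is 15.5% of the 232 and 52.9% of the 68. Of the lower genes 91 were shared, which is 35.8% of the 254 and 55.5% of the 164. The genes of largest ratio were now C1qb, C1qa, Wfdc17, Iglc1, Apoe, Cst3, Mif, Atox1, Npc2, Hsph1, Timm10b and Hspd1. Some macrophage RNA was still present and it lay in few cells. The 12 macrophage genes summed to at most 10 UMIs in a PBS B cell, and the 6 of 40 Igfbpl1 cells above that limit held 205 of the 260 UMIs (78.8%). C1qb stood at 701 CPM in the Igfbpl1 cells and 84.9 CPM in PBS B cells, a ratio of 8.25 (4.55 to 15.7), and without those 6 cells the ratio was 1.56 (0.502 to 4.21). Apoe had a ratio of 5.05 (3.61 to 7.10) with the 6 cells and 1.77 (1.06 to 2.87) without them. The macrophage protease inhibitor gene Cst3 had a ratio of 3.86 (2.98 to 5.01) with them and 0.689 (0.394 to 1.14) without.

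The lower genes of largest ratio without carriers were Tmem134, Tmem123, Ankrd12, Cmss1, Arhgef18, Srp14, Chd2, Acin1, Nedd9, Rock2, Arpc5 and Satb1. Satb1, a chromatin organiser of lymphocytes, stood at 163 CPM in the 40 Igfbpl1 cells and 435 CPM in PBS B cells, a ratio of 0.374 (0.173 to 0.724). Chd2, a chromatin remodeller, stood at 114 CPM in the Igfbpl1 cells and 334 CPM in PBS B cells, and Nedd9, an adaptor of integrin signalling, at 114 CPM in the Igfbpl1 cells and 324 CPM in PBS B cells. Tmem123, Cmss1, Chd2 and Satb1 were also among the 12 lower genes of largest ratio with all B cells. The others there were Gimap1, Fry, Itsn2, Strbp, Fmc1, Snx29, Ccm2 and Cyth1.

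The gene lists are read against those shares, 8.92% higher and 9.77% lower with all B cells and 3.66% higher and 8.83% lower without carriers. Of 11 receptor and co-receptor genes measured without carriers, 0 were higher and 0 lower, with a median log2 ratio of -0.36. Of 15 genes of receptor signalling 0 were higher and 4 lower, also with a median of -0.36. Syk, the kinase that binds the phosphorylated Cd79 dimer, stood at 261 CPM in the 40 Igfbpl1 cells and 589 CPM in PBS B cells, a ratio of 0.443 (0.244 to 0.751). Malt1, a protease and scaffold that relays the signal to NF-kappaB, had a ratio of 0.432 (0.189 to 0.872). The phosphatase gene Ptpn6, a brake on the receptor, had a ratio of 0.413 (0.158 to 0.913). Lyn, the most abundant Src family kinase of the list, had a ratio of 0.748 (0.480 to 1.13). Of 18 B lineage transcription factors 0 were higher and 0 lower without carriers (median -0.11), and 1 was higher and 3 lower with all B cells (median -0.82). Leaving out also the 6 cells that held most of the macrophage RNA, 1758 genes were measured, of which 67 (3.81%) were higher and 166 (9.44%) lower. Then 2 of the 15 signalling genes were lower, Ptpn6 and Pik3ap1, Syk and Malt1 were no longer called, and the median was -0.081. In that comparison 1 of the 11 receptor and co-receptor genes and 1 of the 18 transcription factors were lower, Cd72 and Tcf3, both on at most 4 Igfbpl1 UMIs.

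**Figure D3:**
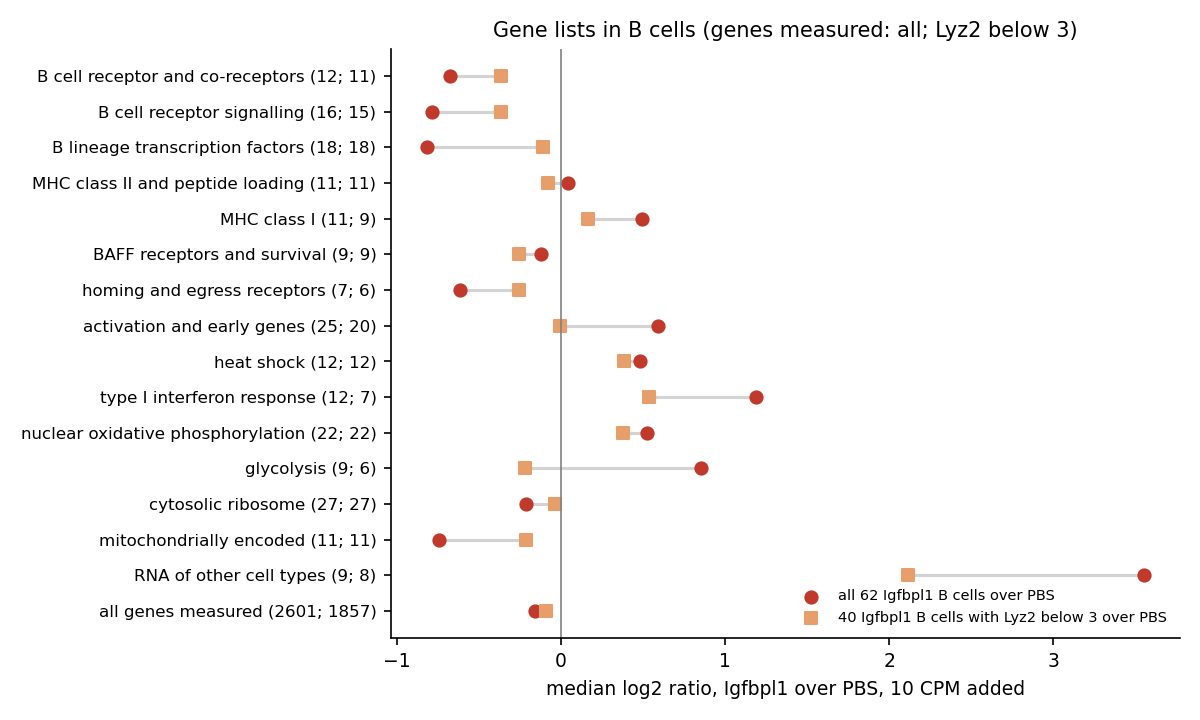
Median log2 ratio of Igfbpl1 over PBS for gene lists with at least 6 genes measured in both comparisons, with 10 CPM added, for all 62 Igfbpl1 B cells (circles) and the 40 with Lyz2 below 3 (squares), both against the same 79 PBS B cells. The list of follicular subset genes, with 6 measured in both, is not drawn. Its median was -0.93 with all cells and -0.43 with Lyz2 below 3. The numbers beside a list are the genes measured in each comparison; the median of the interferon list is 1.19 with all cells and 0.54 with Lyz2 below 3.

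No antigen presentation gene measured was called once the carriers were set aside, and 2 were on leaving out further cells. Of 11 genes of MHC class II and peptide loading 0 were higher and 0 lower, with a median log2 ratio of -0.078. Without the 6 cells with most macrophage RNA 0 were higher and 2 lower, with a median of -0.32: H2-DMb1, with 2 UMIs in the Igfbpl1 cells and 22 in PBS B cells, and the class II transactivator gene Ciita, with 1 UMI in the Igfbpl1 cells and 22 in PBS B cells. Cd74, the invariant chain, stood at 9810 CPM in the 40 Igfbpl1 cells and 11333 CPM in PBS B cells, a ratio of 0.866 (0.789 to 0.948). H2-Aa stood at 3389 CPM in the Igfbpl1 cells and 3402 CPM in PBS B cells, a ratio of 0.996 (0.848 to 1.17). With all B cells 2 genes were higher, H2-DMb1 and Ctss, and 2 lower, H2-DMb2 and H2-Ob, where H2-Ob is the B cell partner of a peptide exchange inhibitor. Of 9 MHC class I genes 0 were higher and 0 lower without carriers, B2m having a ratio of 1.02 (0.780 to 1.32).

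The lists of activation, interferon response and cytokines moved with the carriers. With all B cells 9 of 25 activation and early genes were higher and 0 lower (median 0.59), Atf3 with 183 UMIs in Igfbpl1 B cells and 9 in PBS B cells and the G protein regulator Rgs1 with 95 UMIs in Igfbpl1 B cells and 2 in PBS B cells. Without carriers 1 of 20 was higher, Dusp1, and the median was -0.0075. Among the 12 measured genes of the type I interferon response 8 were higher and 0 lower with all B cells (median 1.19), and 1 of 7 was higher without carriers, Ifitm3 (median 0.54), which had 16 UMIs in the 40 Igfbpl1 cells, 15 of them in the 6 cells with most macrophage RNA, and 5 UMIs in PBS B cells. Ly6e, the interferon response gene of highest level without carriers, had a ratio of 0.581 (0.402 to 0.822). Mitochondrially encoded genes were 0 higher and 3 lower of 11 with all cells (median -0.74) and 0 higher and 0 lower without carriers (median -0.21). Cytosolic ribosome genes were 0 higher and 0 lower of 27 without carriers (median -0.035), and nuclear genes of oxidative phosphorylation 2 higher (Uqcrb and Ndufc1) and 1 lower (Atp5b) of 22 (median 0.38). Without the 6 cells both higher calls were lost, and 0 of 21 genes of oxidative phosphorylation were higher and 2 lower, Atp5b and Ndufb9 (median 0.22). The activation list then had 2 higher and 1 lower of 20, and the interferon list 0 higher and 0 lower of 6.

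Heat shock genes were the list with more genes higher without the carriers than with them. With all B cells 1 of 12 was higher, Hspb1, with a median of 0.48, and without carriers 4 of 12 were higher and 0 lower, with a median of 0.39. Hsph1, a chaperone of the Hsp110 family, stood at 782 CPM in the 40 Igfbpl1 cells and 334 CPM in PBS B cells, a ratio of 2.34 (1.57 to 3.46). It was found after thinning in 40% of the Igfbpl1 cells (24.9% to 56.7%) and 20.3% of PBS B cells (12.04% to 30.8%). Hspd1, the mitochondrial chaperonin, had a ratio of 2.33 (1.28 to 4.20) and Dnajb1, a co-chaperone, one of 2.18 (1.54 to 3.06). Hspb1, a small heat shock protein, had 28 UMIs in 7 of the 40 Igfbpl1 cells and 6 UMIs in 4 of the 79 PBS B cells. Hspa1a, the most abundant gene of the list, stood at 5964 CPM in the Igfbpl1 cells and 3556 CPM in PBS B cells, a ratio of 1.68 (1.47 to 1.91), and its neighbour and near copy Hspa1b at 3015 CPM in the Igfbpl1 cells and 3126 CPM in PBS B cells. Reads of those 2 genes may have been split between them. Without the 6 cells with most macrophage RNA the ratio was 2.78 (1.84 to 4.18) for Hsph1, 2.59 (1.35 to 4.82) for Hspd1 and 1.84 (1.22 to 2.73) for Dnajb1, which was then no longer called. Hspa1a passed the 2-fold limit instead, with a ratio of 2.02 (1.76 to 2.31), so that 4 of 12 genes were higher in that comparison too, Hsph1, Hspd1 and Hspb1 being the shared ones.

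Light chains were compared by giving each cell the chain with more constant region UMIs, Igkc or the sum of Iglc1, Iglc2 and Iglc3. Kappa was the larger in 47 of 62 Igfbpl1 B cells (75.8%, 63.3% to 85.8%) and 68 of 79 PBS B cells (86.1%, 76.5% to 92.8%). Lambda was the larger in 13 Igfbpl1 and 8 PBS cells, and 2 Igfbpl1 and 3 PBS cells were tied. The kappa intervals overlapped. The 3 lambda genes resemble each other and the UMIs may be split among them. Cells without any Igkc UMI were 1 in the Igfbpl1 library, with 267 lambda UMIs, and 5 in the PBS library, with 9 to 54.

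That 1 Igfbpl1 cell set the Iglc1 ratio. Iglc1 (chr16:19061618-19062071, - strand) stood at 1621 CPM in all Igfbpl1 B cells and 664 CPM in PBS B cells, and the cell held 243 of the 276 Igfbpl1 UMIs. The ratio was 2.44 (1.97 to 3.04) with it and 0.299 (0.197 to 0.441) without it. For the cells with Lyz2 below 3 it was 6.41 (5.16 to 8.00) with it and 0.471 (0.270 to 0.775) without it. The cell had 3742 UMIs in all, 20 of Ighm, 6 of the marginal zone and B1 cell protein gene Mzb1, 0 of Igkc, 0 of Xbp1 and 1 of Lyz2. Iglc2 had a ratio of 1.30 (1.06 to 1.58) and Iglc3 one of 1.01 (0.757 to 1.33) in the cells with Lyz2 below 3. Both ratios include that cell, which held 17 UMIs of Iglc2 and 7 of Iglc3, and are not given without it.

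**Figure D4:**
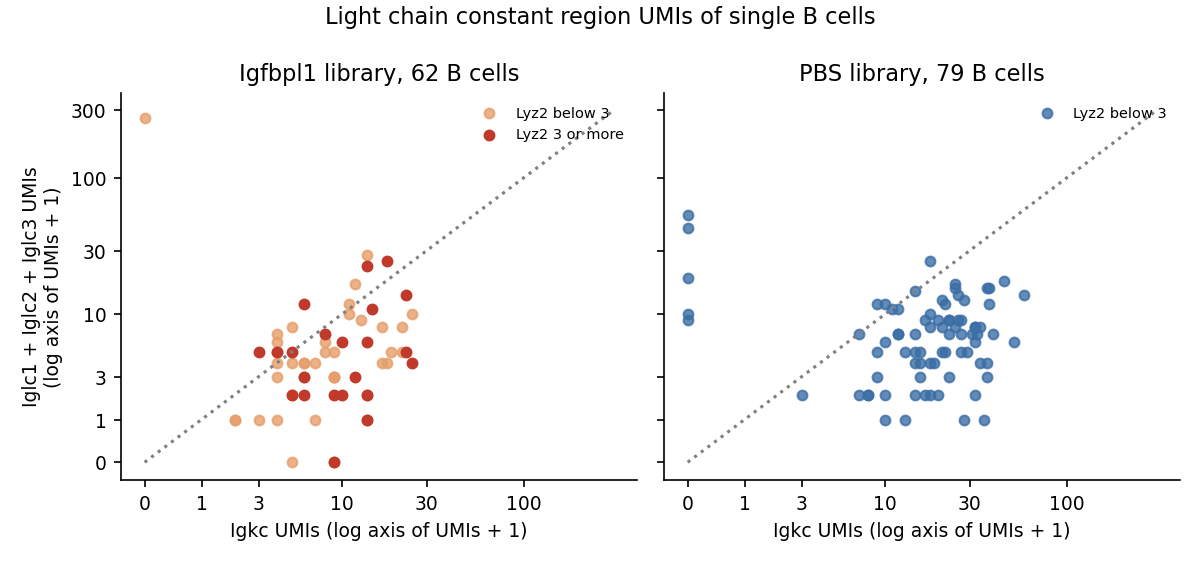
Lambda constant region UMIs (Iglc1, Iglc2 and Iglc3 summed, vertical log axis of UMIs + 1) against Igkc UMIs (horizontal log axis of UMIs + 1) of single B cells, Igfbpl1 on the left and PBS on the right, with equal UMIs on the dotted line. The Igfbpl1 cell with 267 lambda UMIs and 0 Igkc UMIs stands apart at the upper left, and most cells of both libraries lie below the line.

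Ighm or Ighd, the heavy chain genes of unswitched B cells, was found in nearly all B cells of both libraries. Both Ighm and Ighd, the constant regions of IgM and IgD, were found in 24 of 62 Igfbpl1 and 58 of 79 PBS B cells. Ighm without Ighd was found in 26 Igfbpl1 and 19 PBS cells, Ighd without Ighm in 9 Igfbpl1 and 2 PBS cells, and neither in 3 Igfbpl1 and 0 PBS cells. These counts move with depth, whose median was 1646.5 UMIs in the Igfbpl1 and 2235 in the PBS B cells. The ratio of summed Ighm to summed Ighd UMIs was 2.64 in the Igfbpl1 and 2.66 in the PBS B cells. Ighm (chr12:113418558-113422730, - strand) stood at 1515 CPM in the Igfbpl1 cells with Lyz2 below 3 and 2049 CPM in PBS B cells, a ratio of 0.740 (0.583 to 0.930), and Ighd (chr12:113406604-113416324, - strand) had a ratio of 0.741 (0.497 to 1.08). Switched classes gave 3 UMIs of Igha and 2 of Ighg2b in 5 Igfbpl1 B cells, all of which also held Ighm or Ighd. These genes are not listed for the PBS library, so switched classes are not compared.

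Genes that mark B cell subsets were compared as shares of cells with a UMI after thinning every cell to 1000 UMIs. Fcer2a, the CD23 gene of follicular B cells, was found in 40% (24.9% to 56.7%) of the 40 Igfbpl1 cells with Lyz2 below 3 and 29.1% (19.4% to 40.4%) of PBS B cells. Its CPM ratio was 1.56 (0.963 to 2.48) in these cells and 2.05 (1.26 to 3.28) without the 6 cells with most macrophage RNA. Cr2, the CD21 gene high in marginal zone cells, was found in 15% (5.71% to 29.8%) of the Igfbpl1 cells and 6.33% (2.09% to 14.2%) of PBS B cells. The intervals overlapped for both genes, neither of which was found in over 0.130% of the microglial cells of either library. Mzb1 was found in 25% of the Igfbpl1 cells and 25.3% of PBS B cells. Cd5 of B1a cells had 0 UMIs in both libraries' B cells, and the proliferation gene Mki67 had 1 UMI in Igfbpl1 B cells and 0 in PBS B cells.

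Survival and growth factor receptors gave few UMIs. Tnfrsf13c, the receptor for the survival factor BAFF, had 3 UMIs in 3 of the 40 Igfbpl1 cells and 31 UMIs in 26 of the 79 PBS B cells, a ratio of 0.297 (0.0581 to 0.952). Without the 6 cells with most macrophage RNA its ratio was 0.404 (0.0790 to 1.29), an interval that spanned 1. It was 1 of 2 genes called in its list of 9, the other being the anti-apoptotic Bcl2a1b, with a ratio of 2.85 (1.23 to 6.54) that was 1.49 (0.420 to 4.38) without the 6 cells with most macrophage RNA. Without those cells 7 genes of the list were measured, of which 2 were higher and 1, Tnfrsf13c, lower. The higher genes were Tnfrsf13b, with a ratio of 2.21 (0.868 to 5.24), and Bcl2, with a ratio of 2.41 (1.19 to 4.72). Igf1r, the main receptor of insulin-like growth factor 1, had 1 UMI in Igfbpl1 B cells and 2 UMIs in PBS B cells, so no difference was detectable at this depth. Of the list of insulin-like growth factor signalling 4 genes were measured with all B cells, 0 higher and 0 lower. The Igfbpl1 gene itself is listed for neither library.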

How the data were processed

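The deposited values are raw UMI counts per gene and cell barcode, as deposited by the authors, for 2 libraries. Per the submitters' processing notes, reads were handled with Cell Ranger 3.1 on the mm10 build. How cells were filtered beforehand is not stated there. A gene not listed for a library counted as 0 in the rule for B cells. Tables were read with Python 3.11.15, pandas 2.3.3 and numpy 2.4.6. Doublets were scored per library with Scrublet in scanpy 1.11.5 (seed 0) and kept. UMIs were summed over the cells of a class and given as CPM. Intervals came from scipy 1.17.1: Clopper-Pearson for shares, Newcombe for their difference, Poisson for CPM and conditional binomial for ratios, which had nothing added. For log2 ratios 10 CPM was added to each library. The upper limit of a share of 0 is 3 counts. Measured genes had 20 or more UMIs and a mean of 50 CPM or more over the B cells of both libraries. Thinning to 1000 UMIs used seed 2 and left out no cell.

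Named genes were the B cell markers, the constant region genes, and per direction the 12 genes of largest ratio with 40 or more UMIs, at least 2-fold and an interval clear of 1. That choice by size passed over mitochondrial, ribosomal, immunoglobulin variable and clone-named genes. Lists gave at most 2 genes of highest level and 2 of largest ratio; other genes called in a list, and those of the Lyz2 carriers, were named after their values were seen. Some genes that these choices name are not reported here. The members, lists, classes and tests were chosen with earlier results of these data known. Counting steps were tested on simulated data. Alternatives covered the limits of the rule, Lyz2 carriers, doublet calls, depth, scaling and low counts. The 6 cells with most macrophage RNA were set apart after seeing the data. Figures were drawn with matplotlib 3.10.9.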

Additional observations from a re-analysis of the deposited data

How the results depend on the processing

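No paired analysis was possible because each group is 1 library and no result comes from a test. The Igfbpl1 B cell share was 1.26% with a minimum of 5 UMIs of the rule genes, 1.20% without Lyz2 carriers, 1.17% with cells thinned to 1000 UMIs and 1.30% among cells of 2000 UMIs or more, where the PBS share was 5.91%. Among cells outside the microglial class the shares were 3.56% in Igfbpl1 and 27.8% in PBS, a difference of -24.3 points. Among Xist-only cells, a split chosen after seeing the data, they were 1.36% in Igfbpl1 and 4.40% in PBS, a difference of -3.04 points. The share of Lyz2 carriers in the Igfbpl1 B cells was 10.3% after thinning and 77.8% among cells of 2000 UMIs or more, where the kappa share was 63.0%.

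The counts of 232 higher and 254 lower genes became 68 and 164 without Lyz2 carriers, 67 and 166 without these and the 6 cells with most macrophage RNA (added after seeing the data), 33 and 46 after thinning, 99 and 86 with a minimum of 50 UMIs and 100 CPM, and 1251 and 1328 with no minimum beyond 1 UMI. The lower genes numbered 387 in cells of 2000 UMIs or more, 94 with 50 CPM added and 169 after centring on the median. The other 79 alternative values of these results stayed within the counting interval of a share or within 1.5 times of a count. Of the list medians 324 alternative values stayed within 1.5 times of the main ratio and 23 moved. Another 2 changed sign from a main median log2 ratio of at least 1 in size. Sign changes of smaller medians were not counted apart. The glycolysis list, for example, had a median of 0.86 with all cells and -0.22 without carriers. The list of cytokines and ligands of B cells had a median of 1.31 with all cells and -0.31 without carriers, over 4 and 3 genes measured, and -0.39 without those 6 cells too. The cause was not tested.

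Depth limits single genes most. With 62 Igfbpl1 and 79 PBS B cells, genes of few UMIs such as Igf1r could not be compared.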
